A study of Mus musculus with 2 samples.

Results

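The genes described here are 10 receptors, ligands and adhesion molecules known to place granule cells during cerebellar development: the chemokine Cxcl12 and its receptor Cxcr4, the transmembrane semaphorin Sema6a and the plexin Plxna2, the netrin receptors Dcc, Unc5b and Unc5c, the Slit receptors Robo1 and Robo2, and the neuronal adhesion protein Astn1. They were taken by symbol from the gene list of the deposited matrices, where 10 of 31055 features carry these names. The rule uses names only, but the set was proposed with earlier results of these data known. Granule neuron progenitors divide at the surface of the developing cerebellum, held near the meninges by CXCL12 acting on CXCR4. When they leave the cell cycle they first move along the surface and then inwards along the fibres of Bergmann glia. SEMA6A and PLXNA2 are known for the switch to inward migration, UNC5 receptors for keeping granule cells within their borders in a netrin field, and ASTN1 for adhesion to the glial fibre.

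The material was medulloblastoma of mice of the genotype Math1-Cre;SmoM2fl/fl, in which Cre under the Math1 (Atoh1) promoter switches on an active form of Smoothened, so that the Sonic hedgehog pathway is active in granule neuron progenitors. Of the 2 libraries, 1 was made from tumour-derived cells after standard proton irradiation and 1 after FLASH irradiation with protons, a mode with a very high dose rate. The sample labels give 5 Gy for both, whereas the description of the study design gives 10 Gy. The sources used here give neither the time between irradiation and harvest nor how many mice went into each library. Both libraries carry the same alleles and both were irradiated, and no library from unirradiated tumours was analysed here. Tumours were perfused, digested with enzymes, passed through a mesh of 100 µm and sequenced with the 10x Genomics V3 chemistry, which counts unique molecular identifiers (UMIs) from the 3' ends of transcripts.

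With 1 library per group there is no spread between replicates and no test. Every interval below is an exact 95% interval for counting error only, every level is the gene's UMIs per 1000000 UMIs of the class (CPM), and every difference between libraries or classes is a description of these 2 libraries. The standard library held 12867 barcodes and 55532202 UMIs, of which 7888 cells were kept, and the FLASH library 14269 barcodes and 63178900 UMIs, of which 9506 were kept. Their median depths were 5571 and 5212 UMIs per cell. The libraries shared 46 barcodes, 21 of them among kept cells. Clusters were made without the 10 genes and named from marker lists. Tumour-lineage cells, 5990 in the standard and 7339 in the FLASH library, comprised 4 cycling classes (S entry-like, histone-rich S-like, G2-like and mitosis-like), 2 non-cycling progenitor-like classes (one led by Hes1, called Hes1-led, and one with Hes1 at 27.9 and 20.8 CPM against 244 and 211 CPM, called Hes1-low), an intermediate class led by Cre, Eln and Pde1c that keeps no name, and early postmitotic-like and later neuron-like classes. The later neuron-like class had the neuronal gene Grin2b at 342 and 309 CPM and the granule lineage gene Neurod1 at 2560 and 2312 CPM, but Gabra6, a gene of mature granule neurons, at 0.749 and 0 CPM, so it is not a class of mature granule neurons. Also counted as tumour-lineage were a Meis2-led cluster and a shallow cluster led by nuclear RNAs.

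The Hes1-low class takes its name from the progenitor list, of which 9 of 10 markers were past a log2 ratio of 0.3 over the other cells, and not from its leading genes. Of its 10 leading genes, 6 were skeletal muscle genes (Mylpf, Tnnc2, Myl1, Acta1, Tnnt3 and Tpm2), and 450 of the 646 Mylpf UMIs lay in 1 cell of the standard library. Without that cell the class was led by Srebf1, Gm17322, Ung and Hey1, with Atoh1 among the first 10. Atoh1, the transcription factor of granule neuron progenitors, stood at 133 and 121 CPM in Hes1-led and at 103 and 102 CPM in Hes1-low cells.

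Over all barcodes that passed the filter on genes and mitochondrial share (8461 and 10366), before doublets were removed, all 10 genes were detected in both libraries. Unc5b was the least detected, at 1.57 CPM in the standard and 1.75 CPM in the FLASH library. Levels are not compared between genes, because they are not corrected for transcript length or for how well each 3' end is captured.

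The upstream sequences of 3 of the genes are shown because the results below turn on them: Cxcl12 and Cxcr4 form the ligand and receptor pair, and Cxcr4 and Robo2 were the genes with lower levels in later neuron-like than in progenitor-like cells. Each is the 250 bases before a start site annotated by RefSeq on GRCm38.p6, read 5′ to 3′ on the gene's strand. They are chr1:128592300-128592549 on the minus strand for Cxcr4, chr6:117168285-117168534 on the plus strand for Cxcl12, and chr16:74411826-74412075 on the minus strand for Robo2, whose other annotated starts lie further upstream. Capitals mark the E-box CAGCTG, a motif of basic helix-loop-helix factors.
Cxcr4: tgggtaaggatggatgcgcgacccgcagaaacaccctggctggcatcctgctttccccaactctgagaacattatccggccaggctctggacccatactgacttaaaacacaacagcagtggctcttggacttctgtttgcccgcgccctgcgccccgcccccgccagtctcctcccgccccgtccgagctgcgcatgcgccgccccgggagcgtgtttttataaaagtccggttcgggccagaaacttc
Cxcl12: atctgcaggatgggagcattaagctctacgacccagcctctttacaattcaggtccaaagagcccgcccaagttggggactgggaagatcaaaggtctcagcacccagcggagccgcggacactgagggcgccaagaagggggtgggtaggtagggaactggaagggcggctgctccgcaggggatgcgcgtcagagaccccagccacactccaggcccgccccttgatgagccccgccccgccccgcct
Robo2: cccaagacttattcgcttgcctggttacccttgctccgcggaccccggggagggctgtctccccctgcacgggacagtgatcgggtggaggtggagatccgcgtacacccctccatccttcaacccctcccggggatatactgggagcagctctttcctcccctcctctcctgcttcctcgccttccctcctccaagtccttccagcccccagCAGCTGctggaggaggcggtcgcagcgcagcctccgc
On either strand, 3 motifs were searched for: CAGCTG, the E-box CAGATG, and the GLI-type site TGGGTGGTC, the form bound by the transcription factors of the Sonic hedgehog pathway. Of the 10 upstream windows that matched 8 of the 10 genes, 2 held CAGCTG (Robo2 above and Astn1), and no window held the other motifs. Among 32851 such windows of all genes, 13% held CAGCTG, 14.4% CAGATG and 0.225% the GLI-type site. A match describes the letters only.

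Cxcr4, the receptor, was, within the 9 named tumour-lineage classes, highest in the Hes1-led progenitor-like cells and almost undetected in later neuron-like cells. On mm10 it lies at chr1:128588199-128592293 on the minus strand and spans 4095 bases. In the standard library it stood at 92.9 CPM (84.5 to 102) in Hes1-led and 51.8 CPM in Hes1-low progenitor-like cells, 28.8 CPM in the intermediate class, 5.23 CPM in early postmitotic-like and 1.87 CPM in later neuron-like cells. In the FLASH library the same classes stood at 69.5 CPM (62.4 to 77.2), 47.4, 15.2, 2.50 and 1.73 CPM. The order of these 5 classes was the same in both libraries, and only 5 Cxcr4 UMIs per library came from later neuron-like cells. The log2 ratio of later neuron-like over non-cycling progenitor-like cells was -5.08 (-6.84 to -3.99) in the standard and -4.89 (-6.65 to -3.80) in the FLASH library, that is 33.8-fold and 29.7-fold lower. With classes from per-cell marker UMIs, where each cell is classed by its own marker counts instead of its cluster, the ratios were -1.34 and -1.76, still past 2-fold.

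Among cycling cells Cxcr4 was lower than in non-cycling progenitor-like cells, at 39.9 against 69.6 CPM in the standard and 30.5 against 56.3 CPM in the FLASH library. The log2 ratios were -0.80 (-0.96 to -0.65) and -0.88 (-1.04 to -0.72). The progenitor-like sum includes the Hes1-led class. Pooled over both libraries, Hes1-low cells alone stood at 49.4 CPM and cycling cells at 34.8 CPM. Cxcr4 was not called past 1.5-fold when barcodes were held to at most 5% mitochondrial UMIs, nor with classes from per-cell marker UMIs. From S entry-like to mitosis-like cells the level went from 48.2 to 29.6 CPM in the standard library and from 39.1 to 26.7 CPM in the FLASH library. With each cell thinned to 2000 UMIs, 16.2% and 13.4% of Hes1-led progenitor-like cells had a Cxcr4 UMI, against 43.8% and 31.7% unthinned at median depths of 6576.5 and 5835 UMIs. In oligodendrocyte lineage-like cells, which served as a background, the thinned share was 1.14% and 0% (upper bound 2.74%) and the unthinned share 3.31% and 2.30%, at median depths of 4804 and 5315 UMIs.

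Cxcr4 was also detected in leukocytes, where it guides recruitment. Macrophage-like cells held 82.1 and 70.5 CPM (108 and 113 UMIs), and microglia-like cells 21.1 and 8.97 CPM (16 and 6 UMIs). Neutrophil-like cells gave 72.9 and 242 CPM from 4 and 19 UMIs in 18 and 27 cells. The interval of the standard neutrophil-like value, 19.9 to 187 CPM, overlapped that of the FLASH value, 146 to 378 CPM.

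The ligand Cxcl12 had its highest levels outside the tumour lineage, in endothelial-like and fibroblast-like cells, and a second, lower source in Hes1-led progenitor-like and later neuron-like cells. Cxcl12 lies at chr6:117168535-117181367 on the plus strand. Endothelial-like cells held 546 CPM (436 to 676) in the standard and 881 CPM (746 to 1033) in the FLASH library. These sums came from 84 UMIs in 12 of 33 cells and 151 UMIs in 24 of 50 cells, and in the standard library 43 of the 84 UMIs were in 1 cell. Fibroblast-like cells, only 5 and 7 in number, held 866 and 1737 CPM. No fibroblast-like cell of either library was without a Cxcl12 UMI.

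Within the tumour lineage Cxcl12 stood at 29.9 and 30.6 CPM in Hes1-led progenitor-like cells and at 10.7 and 7.55 CPM in Hes1-low progenitor-like cells. It stood at 45.0 CPM (37.3 to 53.8) and 34.8 CPM (28.4 to 42.3) in later neuron-like cells, and between 0.876 and 5.31 CPM in the 4 cycling classes of both libraries. The levels thus had a trough in cycling cells and peaks at both ends of the series from Hes1-led progenitor to later neuron. Cycling over non-cycling progenitor-like log2 ratios were -2.39 (-2.84 to -1.97) and -2.43 (-2.88 to -2.02). The later neuron-like over progenitor-like ratios were 1.24 (0.90 to 1.57) and 1.06 (0.70 to 1.40). That step stayed under 2-fold in all 6 alternatives of filtering and clustering, at 0.56 to 0.98 in the standard and 0.50 to 0.96 in the FLASH library, so none of them kept the call.

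Since tumour-lineage cells were far more numerous, most Cxcl12 UMIs still came from them. With shallow clusters left out, the share from outside the tumour lineage was 20.7% (17.7 to 24.0) of the UMIs in the standard and 34.4% in the FLASH library. Endothelial-like cells alone gave 12.7% and 19.2% of all Cxcl12 UMIs from 0.418% and 0.526% of the kept cells. Macrophage-like cells, taken as the background, had 0 UMIs in 161 cells and 2 UMIs in 203 cells. In the standard library, 0 of 121 oligodendrocyte lineage-like cells had a Cxcl12 UMI, whereas the FLASH library had 21 UMIs in 5 of 174 such cells.

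The ligand and the receptor were rarely seen in one cell. At 2000 UMIs per cell, 0.179% of tumour-lineage cells in the standard and 0.144% in the FLASH library had a UMI of both, against 0.202% and 0.153% from the product of the separate shares. Cxcr4 was lower and Cxcl12 higher in later neuron-like than in Hes1-low progenitor-like cells. Hes1-led progenitor-like cells had both, with Cxcr4 at 80.9 CPM and Cxcl12 at 30.3 CPM over both libraries pooled. The pooled Cxcl12 level of later neuron-like cells was 39.7 CPM.

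**Figure D1:**
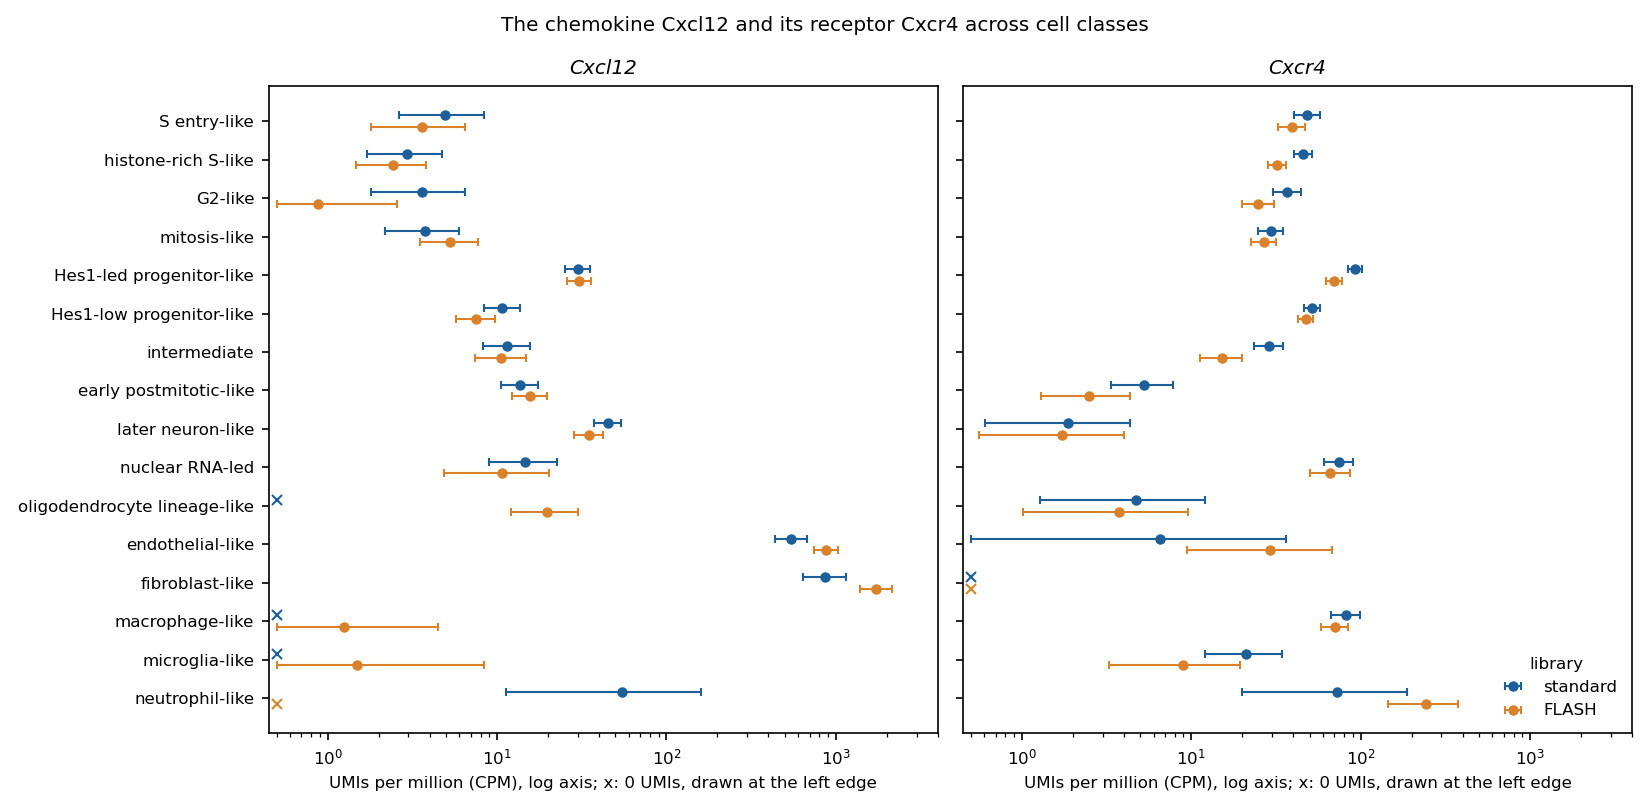
Level of Cxcl12 (left) and Cxcr4 (right) in CPM on a log axis, by cell class, for the standard (blue) and FLASH (orange) library. Points are class sums, bars exact 95% Poisson intervals cut off at the left edge, and crosses mark classes with 0 UMIs. Cxcl12 peaks in endothelial-like (546 and 881 CPM) and fibroblast-like cells, Cxcr4 in Hes1-led progenitor-like, macrophage-like, neutrophil-like and nuclear RNA-led classes.

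Of the other genes of the CXCL12 axis, 5 of the 8 listed could be compared between later neuron-like and progenitor-like cells (at least 100 UMIs). In later neuron-like cells 0 were higher, where 12.5% of all genes compared were, and 3 were lower, where 11.7% were: Cxcl14, another chemokine, Rgs16, a regulator of G-protein signalling, and Gnai2, the inhibitory G-protein subunit through which CXCR4 signals. Gnai2 stood at 448 and 449 CPM in Hes1-led progenitor-like and at 77.2 and 82.1 CPM in later neuron-like cells, with endothelial-like cells at 910 and 1015 CPM. Cxcl14 went from 27.4 and 27.3 CPM in Hes1-led progenitor-like to 1.87 and 0.345 CPM in later neuron-like cells. The median log2 ratio of the 5 genes was -2.41, beside 0.06 over all genes compared. Hmgb1, which can pair with CXCL12, stood at 3280 and 3232 CPM in G2-like and 887 and 885 CPM in later neuron-like cells, and Arrb2, an arrestin, at 27.7 and 23.1 CPM in the latter. The scavenging receptor Ackr3 had its highest level in endothelial-like cells, at 71.5 and 35.0 CPM, and the protease Dpp4, which cleaves CXCL12, stood there at 32.5 and 46.7 CPM. In the standard library Rgs16 had its highest level in the 5 fibroblast-like cells, at 184 CPM on 10 UMIs. In the FLASH library the 7 fibroblast-like cells stood at 38.6 CPM on 2 UMIs and oligodendrocyte lineage-like cells at 40.2 CPM on 43 UMIs.

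Sema6a, a transmembrane ligand that can also act as a receptor, was higher at each step from progenitor-like to later neuron-like cells. It lies at chr18:47235598-47368870 on the minus strand. From the Hes1-led progenitor-like class on, the standard library gave 29.9, 49.2, 91.9, 228 and 435 CPM in Hes1-led, Hes1-low, intermediate, early postmitotic-like and later neuron-like cells. The FLASH library gave 34.2, 47.7, 101, 258 and 439 CPM. The 5 levels had this order in both libraries. The later neuron-like over progenitor-like log2 ratio was 3.41 (3.25 to 3.57) and 3.38 (3.23 to 3.53), that is 10.6-fold and 10.4-fold higher. With classes from per-cell marker UMIs it was 1.23 and 1.65.

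The share of cells with a Sema6a UMI at 2000 UMIs per cell was 55.9% (51.5 to 60.2) and 59.0% (55.0 to 62.9) of later neuron-like cells, and 80.0% and 80.1% unthinned at median depths of 4740 and 4252 UMIs. In macrophage-like cells the thinned shares were 0.621% and 1.52% and the unthinned ones 4.35% and 3.45%, at median depths of 7526 and 7048 UMIs. Cycling classes stayed between 49.0 and 73.1 CPM. Outside the tumour lineage, Sema6a was detected in endothelial-like cells at 306 and 333 CPM and in oligodendrocyte lineage-like cells at 229 and 270 CPM.

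Plxna2, a receptor of SEMA6A, had separate peaks: G2-like cells, Hes1-led progenitor-like cells and later neuron-like cells. It lies at chr1:194618218-194816869 on the plus strand. Levels in later neuron-like cells were 41.2 CPM (33.9 to 49.7) and 42.1 CPM (35.0 to 50.3), after 3.71 and 4.17 CPM in early postmitotic-like and 3.17 and 2.73 CPM in intermediate cells. The log2 ratio of later neuron-like over early postmitotic-like cells was 3.44 (2.73 to 4.31) and 3.30 (2.64 to 4.10). Macrophage-like cells held 6.08 and 4.99 CPM on 8 UMIs in each library, so the intermediate and early postmitotic-like values lie below that of macrophage-like cells. The receptor was thus not above the macrophage-like level where Sema6a stood at 228 and 258 CPM. Whether the macrophage-like UMIs are free RNA was not tested, so the low values are not called background. The later neuron-like over progenitor-like log2 ratio was 1.79 and 1.93, with 1.23 and 1.14 when limited to at most 5% mitochondrial UMIs and 2.77 and 2.69 with classes from per-cell marker UMIs. In cycling cells Plxna2 stood at 7.21 and 8.22 CPM in S entry-like, 28.1 and 28.6 CPM in G2-like and 14.6 and 18.1 CPM in mitosis-like cells. The G2-like over S entry-like log2 ratio was 1.93 (1.23 to 2.76) and 1.78 (1.15 to 2.50), and that of mitosis-like over G2-like cells -0.95 (-1.43 to -0.47) and -0.66 (-1.09 to -0.24).

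Both genes were found together in 5.68% (3.87 to 8.01) of later neuron-like cells in the standard and 5.16% (3.56 to 7.21) in the FLASH library at 2000 UMIs per cell. The products of the separate shares were 4.76% and 4.48%, inside these intervals. In intermediate cells 0 of 536 and 0 of 577 cells had both, which allows shares of up to 0.686% and 0.637%.

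Of 21 other semaphorins, plexins and neuropilins, 11 could be compared. In later neuron-like cells 5 were higher (Sema4c, Sema6b, Sema6c, Sema6d and Plxna3) and 3 lower (Sema7a, Plxna1 and Nrp1), where 12.5% and 11.7% of all genes were, with a median log2 ratio of 0.56 beside 0.06 over all genes compared. The higher genes included 3 relatives of Sema6a. Sema6c stood at 76.4 and 71.1 CPM and Sema6d at 64.1 and 64.2 CPM. Sema7a, a membrane-anchored semaphorin, went from 134 and 127 CPM in Hes1-led progenitor-like to 25.9 and 18.6 CPM in later neuron-like cells. Plxnb2, a plexin known in granule cell progenitors, had its highest level among the 9 named classes in early postmitotic-like cells, at 219 and 231 CPM, but stood at 423 and 474 CPM in the nuclear RNA-led cluster. Plxnc1 varied little, between 24.8 and 45.5 CPM over the 9 classes of both libraries. Endothelial-like cells stood out for Nrp1, a co-receptor of secreted semaphorins, at 293 and 257 CPM, and for Sema3c at 189 and 286 CPM.

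Dcc, the receptor that mediates attraction to netrin, was highest, among the 9 named classes, in the intermediate class and in early postmitotic-like cells. It spans 1097436 bases at chr18:71253634-72351069 on the minus strand. In the standard library it stood at 68.6 CPM in Hes1-led and 99.8 CPM in Hes1-low progenitor-like cells, 184 CPM (170 to 199) in the intermediate class, 170 CPM in early postmitotic-like and 114 CPM in later neuron-like cells. In the FLASH library these were 57.5, 94.0, 186 (171 to 201), 169 and 119 CPM. Both libraries therefore showed a peak in the middle of the series, and the log2 ratio of early postmitotic-like over intermediate cells had intervals that included 0 (-0.26 to 0.04 and -0.29 to 0.02). The log2 ratio of intermediate over Hes1-low progenitor-like cells was 0.88 (0.72 to 1.04) and 0.98 (0.82 to 1.14).

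Through the cycle Dcc was lower in each later state: 97.9, 67.5, 55.3 and 44.4 CPM from S entry-like through histone-rich S-like and G2-like to mitosis-like cells in the standard library, and 99.6, 79.0, 58.1 and 46.2 CPM in the FLASH library. The mitosis-like over S entry-like log2 ratio was -1.14 (-1.42 to -0.87) and -1.11 (-1.36 to -0.86). At 2000 UMIs per cell 31.2% and 29.1% of intermediate cells had a Dcc UMI, against 0.621% and 1.52% of macrophage-like cells. Unthinned, the shares were 59.8% and 56.7% against 2.48% and 5.42%, at median depths of 6194 and 5438 UMIs in the intermediate class and 7526 and 7048 UMIs in macrophage-like cells.

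Unc5c, a receptor that mediates repulsion from netrin, was almost confined, within the tumour lineage, to the neuronal steps and the nuclear RNA-led cluster. It lies at chr3:141465216-141834924 on the plus strand. In the 4 cycling, 2 progenitor-like and the intermediate classes it stood between 0.628 and 3.92 CPM in either library. Early postmitotic-like cells held 16.1 CPM (12.7 to 20.3) and 20.9 CPM (17.0 to 25.4), and later neuron-like cells 89.2 CPM (78.2 to 101) and 78.7 CPM (68.8 to 89.6). The later neuron-like level was above every other tumour-lineage class in both libraries. The log2 ratio over progenitor-like cells was 7.04 (6.07 to 8.46) and 5.60 (4.97 to 6.37), on 7 and 20 UMIs in the progenitor-like cells. With classes from per-cell marker UMIs it was 3.27 and 3.04. Macrophage-like cells gave 7 UMIs (5.32 CPM) in the standard and 0 in the FLASH library, so in the standard library the levels before the early postmitotic-like class lie below that of macrophage-like cells. Oligodendrocyte lineage-like cells also held Unc5c, at 64.9 and 73.9 CPM.

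Unc5b, a related receptor known in endothelial cells, gave few UMIs: 50 and 53 in all tumour-lineage cells. Of these 25 and 28 came from later neuron-like cells, which stood at 9.37 CPM (6.06 to 13.8) and 9.66 CPM (6.42 to 14.0), with the other 8 named classes of the lineage at 1.53 CPM or less. The nuclear RNA-led cluster gave 6 and 9 UMIs. Endothelial-like cells held 39.0 and 46.7 CPM from 6 and 8 UMIs, and oligodendrocyte lineage-like cells 17.7 and 22.5 CPM. It lies at chr10:60762593-60831581 on the minus strand, and it had too few UMIs to enter the count of called genes below.

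The netrin receptors thus had different positions along the neuronal series: Dcc in the middle, Unc5c and Unc5b at its end. At 2000 UMIs per cell, Dcc and Unc5c were found together in 10 of 528 later neuron-like cells in the standard (1.89%, 0.912 to 3.46) and 8 of 620 in the FLASH library (1.29%, 0.559 to 2.53), where the products of the separate shares were 2.58% and 2.35%.

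Among 17 other genes of the netrin and DCC family, 16 are in the matrices and 12 could be compared. In later neuron-like cells 4 were higher (Ntn4, Dscam, Dscaml1 and Adgrl3) and 3 lower (Draxin, Rgma and Flrt2), beside shares of 12.5% and 11.7% over all genes, with a median log2 ratio of 0.17 beside 0.06. Draxin, a secreted ligand of DCC, stood at 400 and 396 CPM in Hes1-led progenitor-like cells and 73.1 and 66.9 CPM in later neuron-like cells. Ntn4, a netrin that also binds laminins, went the other way, from 24.1 and 29.0 to 100 and 88.7 CPM. Rgma, a repulsive guidance molecule that binds neogenin, went from 38.3 and 42.7 to 3.0 and 2.76 CPM, while Rgmb stood at 77.6 and 68.0 CPM and neogenin itself, Neo1, at 78.3 and 74.5 CPM in later neuron-like cells. Adgrl3, a latrophilin that binds FLRT and UNC5 proteins, stood at 120 and 106 CPM there. Flrt3 gave 41.6 and 42.4 CPM there, and Flrt2 was highest in fibroblast-like cells at 424 and 444 CPM. The netrin Ntn1 was highest, among the 9 named classes, in intermediate cells, at 43.5 and 50.1 CPM. It stood at 17.6 and 15.5 CPM in later neuron-like cells and at 73.3 and 64.0 CPM in the nuclear RNA-led cluster.

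Robo2, a receptor of the Slit repellents, was highest, among the 9 named classes, in Hes1-led progenitor-like cells in both libraries. It lies at chr16:73891839-74411825 on the minus strand. It stood at 161 CPM (150 to 173) in the standard and 155 CPM (144 to 166) in the FLASH library there, and at 61.9 and 74.9 CPM in Hes1-low progenitor-like cells. Intermediate cells held 73.2 and 69.6 CPM, early postmitotic-like cells 38.2 and 34.8 CPM and later neuron-like cells 40.5 and 53.1 CPM. The Hes1-led class stood apart from the other 8, and the 4 cycling classes lay within 51.5 to 55.4 CPM. Hes1-led over Hes1-low progenitor-like log2 ratios were 1.38 (1.20 to 1.56) and 1.05 (0.89 to 1.21). Later neuron-like over progenitor-like ratios were -1.37 (-1.67 to -1.09) and -1.01 (-1.26 to -0.77), the latter just past 2-fold, and they were -0.68 and -0.32 with classes from per-cell marker UMIs. At 2000 UMIs per cell 28.7% and 26.1% of Hes1-led progenitor-like cells had a Robo2 UMI, against 0.621% and 0% (upper bound 1.85%) of macrophage-like cells. The unthinned shares were 58.8% and 53.0% against 3.73% and 2.96%, at the median depths of these classes given above.

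Robo1 had the flattest profile of the set. It lies at chr16:72308306-73046095 on the plus strand. Over the 9 named classes it ranged from 22.7 to 42.5 CPM in the standard and from 22.6 to 44.4 CPM in the FLASH library, lowest in mitosis-like and highest in Hes1-led progenitor-like cells in both. The later neuron-like over progenitor-like log2 ratio was -0.14 (-0.51 to 0.19) and -0.15 (-0.49 to 0.16), so a difference above 1.5-fold lies outside both intervals. Robo1 and Robo2 were seen together in 2.26% (1.30 to 3.64) and 2.87% (1.85 to 4.24) of Hes1-led progenitor-like cells, beside products of 1.90% and 2.43%.

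Of 10 other genes of the Slit and Robo system, 7 could be compared. Srgap2 and Srgap3, which act on the actin skeleton downstream of ROBO, were higher in later neuron-like cells, at 213 and 205 CPM and at 125 and 128 CPM. Gpc1, a glypican that binds Slit, was lower, at 9.37 and 8.28 CPM after 37.7 and 34.0 CPM in Hes1-low progenitor-like cells. The median log2 ratio of the 7 genes was 0.98 beside 0.06. Nell2, a ligand of ROBO3, stood at 76.8 and 79.4 CPM in later neuron-like cells. Beside these counts, 12.5% of all genes compared were higher and 11.7% lower. The Slit ligands gave few UMIs in tumour cells. Slit1 stood highest in Hes1-led progenitor-like cells, at 7.53 and 10.7 CPM (36 and 54 UMIs), and between 0.759 and 3.37 CPM in the other 8 named classes. Slit2 stood between 0.584 and 5.62 CPM over the 9 named classes and at 12.5 and 7.11 CPM (17 and 6 UMIs) in the nuclear RNA-led cluster. Slit3 gave 8 and 12 UMIs in all tumour-lineage cells. Robo4, the endothelial family member, gave 124 and 105 CPM in endothelial-like cells, where Srgap1 gave 91.0 and 87.5 CPM.

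Astn1, which mediates adhesion of migrating granule neurons to glial fibres, was higher from the intermediate class on. It lies at chr1:158362273-158691781 on the plus strand. The standard library gave 11.9, 13.6, 23.9, 30.3 and 39.3 CPM from Hes1-led progenitor-like to later neuron-like cells, and the FLASH library 14.0, 14.8, 31.3, 35.9 and 36.2 CPM. The last 2 steps overlapped in their intervals in both libraries. The later neuron-like over progenitor-like log2 ratio was 1.61 (1.23 to 1.98) and 1.32 (0.96 to 1.67), and 0.63 and 0.68 with classes from per-cell marker UMIs. Oligodendrocyte lineage-like cells held 28.3 and 54.3 CPM from 24 and 58 UMIs, and macrophage-like cells 2 UMIs in each library.

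In the list of glial-guided and reelin-dependent migration, 17 of 20 genes could be compared. Later neuron-like cells were higher for 7 (Astn2, Reln, Ntrk2, Pard6a, Erbb4, Efnb2 and Ephb2) and lower for 2 (Itga6 and Jam3), where 12.5% and 11.7% of all genes were, so the lower count is near the background share. The list had a median log2 ratio of 0.83 beside 0.06 over all genes. Reln, the secreted glycoprotein that stops migrating neurons and that granule cells themselves make, went from 90.8 and 82.5 CPM in Hes1-led progenitor-like to 443 and 402 CPM in later neuron-like cells. Erbb4, a neuregulin receptor, went from 19.7 and 19.0 to 190 and 178 CPM. Astn2, the partner that controls the surface level of ASTN1, had log2 ratios of 2.15 and 1.98. Pafah1b1 (Lis1), which couples nucleus and microtubules in migration, stood at 515 and 477 CPM in later neuron-like cells and Cdh2, N-cadherin, at 217 and 178 CPM. Ntrk2, the BDNF receptor, stood there at 73.4 and 78.3 CPM. Endothelial-like cells were highest for the integrins Itga6, at 293 and 350 CPM, and Itgb1, at 696 and 584 CPM.

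In the list of guidance effectors, 21 of 22 genes could be compared, of which 10 were higher in later neuron-like cells (Trio, Dock3, Fyn, Src, Pak1, Enah, Evl, Dpysl2, Dpysl3 and Dpysl5) and 0 lower, beside 12.5% and 11.7% of all genes. The median log2 ratio was 0.86 beside 0.06. Dpysl3, a collapsin response mediator, went from 35.6 and 35.5 CPM in Hes1-led progenitor-like to 523 and 471 CPM in later neuron-like cells. It is among the leading genes of the later neuron-like cluster, so its level there is a description of that cluster. Enah, an actin regulator downstream of ROBO and DCC, stood at 237 and 248 CPM there, Dpysl2 at 217 and 199 CPM and the GTPases Cdc42 and Rac1 at 380 and 382 CPM and at 137 and 141 CPM. Crmp1 was highest in the intermediate class, at 562 and 574 CPM, and Ablim1 in endothelial-like cells, at 371 and 449 CPM.

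**Figure D2:**
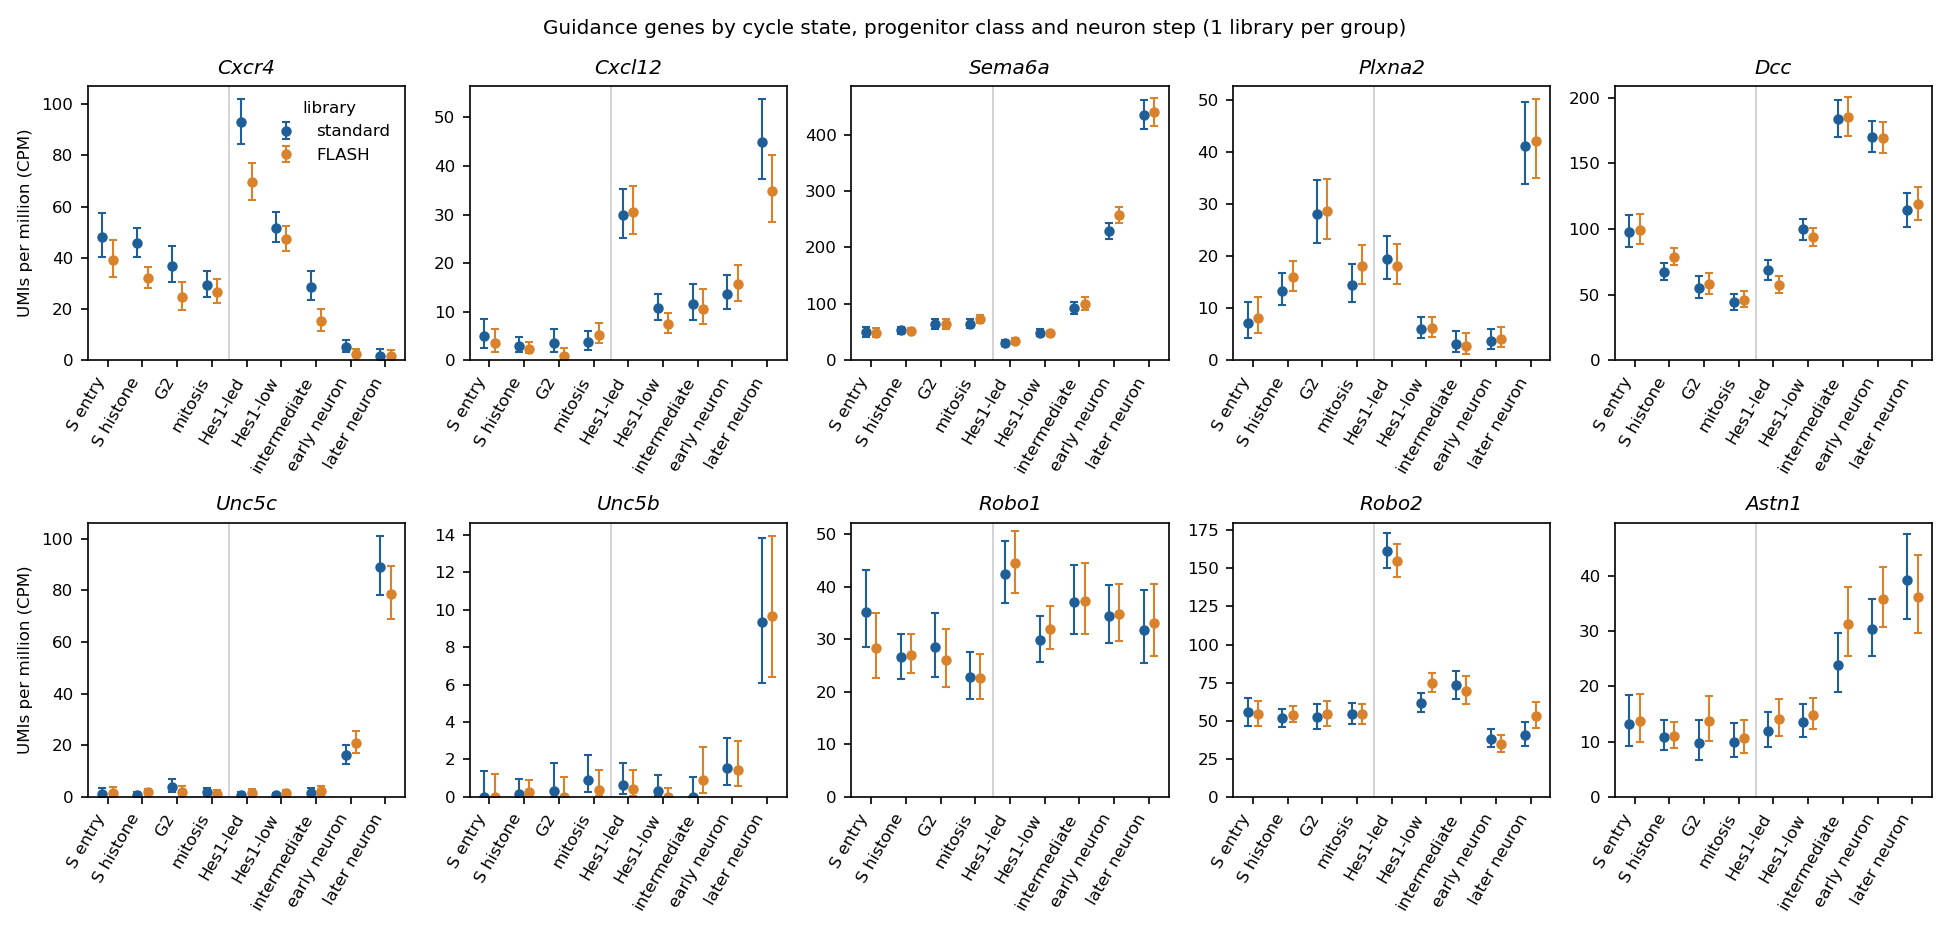
Level of each of the 10 genes in CPM (linear axes, 1 scale per gene) in the 4 cycling classes (left of the grey line) and in the progenitor-like, intermediate and neuron-like classes (right), for the standard (blue) and FLASH (orange) library. Points are class sums and bars exact 95% Poisson intervals. Cxcr4 and Robo2 peak in Hes1-led progenitor-like cells, Dcc in the middle, and Sema6a (435 and 439 CPM), Plxna2, Unc5c and Unc5b in later neuron-like cells.

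Counted together, 9 of the 10 genes had at least 100 UMIs for the comparison of later neuron-like with non-cycling progenitor-like cells. More than 2-fold higher in both libraries were 5 (Cxcl12, Sema6a, Plxna2, Unc5c and Astn1), where 12.5% of 10560 genes were, and more than 2-fold lower were 2 (Cxcr4 and Robo2), where 11.7% were. Dcc and Robo1 stayed under 2-fold. The median log2 ratio of the 9 genes was 1.15 beside 0.06 over all genes. Without Cxcl12, which the alternatives lost, 6 of the 9 were past 2-fold, and with classes from per-cell marker UMIs 4 (Cxcr4, Sema6a, Plxna2 and Unc5c).

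The single steps placed these differences. From Hes1-low progenitor-like to intermediate cells, Sema6a, Dcc and Astn1 were more than 1.5-fold higher (background 5.46%) and Cxcr4 and Plxna2 lower (5.02%). From intermediate to early postmitotic-like cells, Sema6a and Unc5c were higher (4.81%) and Cxcr4 and Robo2 lower (4.34%). From early postmitotic-like to later neuron-like cells, Cxcl12, Sema6a, Plxna2 and Unc5c were higher (6.37%) and 0 lower (2.43%). Sema6a was the only one of the 10 that was higher at all 3 steps. Against all non-cycling progenitor-like cells at the 2-fold limit, early postmitotic-like cells were higher in Sema6a, Unc5c and Astn1 (6.95%) and lower in Cxcr4, Plxna2 and Robo2 (8.68%), so Plxna2 was lower at the early step and higher at the later one.

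The 2 progenitor-like classes differed too. Cxcl12, Plxna2 and Robo2 were more than 1.5-fold higher in the Hes1-led than in the Hes1-low class (background 4.42%), and 0 of the 8 genes compared were lower (4.37%). The Cxcl12 log2 ratio was 1.47 (1.05 to 1.92) in the standard and 2.01 (1.57 to 2.48) in the FLASH library, and that of Plxna2 was 1.66 (1.12 to 2.26) and 1.54 (1.02 to 2.08). At Leiden resolution 2.0, however, 2 clusters took the Hes1-low name, and they lay on either side of the Hes1-led cluster for Cxcl12 and Robo2. Cxcl12 stood at 5.24 and 4.43 CPM and at 73.9 and 70.9 CPM, against 20.9 and 21.8 CPM. Robo2 stood at 71.4 and 92.7 CPM and at 186 and 169 CPM, against 155 and 151 CPM. Only Plxna2 was lower in both than in the Hes1-led cluster. Between cycling and non-cycling progenitor-like cells, 3 of 8 genes were lower (Cxcr4, Cxcl12 and Robo2, background 7.78%) and 0 higher (7.95%). Of these calls only Cxcl12 was made in all 6 alternatives of filtering and clustering. Cxcr4 was lost with at most 5% mitochondrial UMIs and with classes from per-cell marker UMIs, and Robo2 with the latter. Genes were called higher with doublets kept (Plxna2 and Unc5c), at Leiden resolution 2.0 (Sema6a) and with classes from per-cell marker UMIs (Plxna2), which also called Sema6a, Unc5c, Dcc and Astn1 lower. The progenitor-like side of this comparison includes the Hes1-led class, where Cxcr4, Cxcl12 and Robo2 were highest among progenitor-like cells. Pooled over both libraries, Hes1-low cells alone stood at 49.4, 8.99 and 69.0 CPM for these 3 genes. Cycling cells stood at 34.8, 3.34 and 53.7 CPM. Within the cycle, Plxna2 was higher and Dcc lower in G2-like than in S entry-like cells (5.84% and 8.53%), and the same held for mitosis-like over S entry-like cells (5.92% and 10.7%). From G2-like to mitosis-like cells Plxna2 was lower (4.13%).

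In the nuclear RNA-led cluster, 534 and 358 cells with median depths of 2151 and 2048.5 UMIs, 9 of the 10 genes were more than 1.5-fold above the other tumour-lineage cells, all but Cxcl12, where 32.3% of all genes were, and 0 were lower (15%). Averaged over both libraries, the median log2 ratio of all 10 genes was 1.48, beside 0.36 over all genes compared. Per library, the median of the 9 genes with enough UMIs for a median was 1.42 and 1.35. These 9 were set by UMIs and not by the call above. Genes spanning at least 300 kb had medians of 1.15 and 1.16 and genes under 100 kb 0.19 and 0.21. Dcc, Robo1, Robo2, Unc5c and Astn1 each span over 300 kb. The cluster was mixed. At Leiden resolution 2.0, 199 and 101 of its cells joined a group led by Gm26917 and Kcnq1ot1. Another 147 and 108 joined a group led by Mki67 and Knl1. Unc5c stood at 3.59 and 3.14 CPM in the former (2 and 1 UMIs) and 5.10 and 2.56 CPM in the latter (3 and 1 UMIs). Over the whole cluster it stood at 48.5 CPM on 107 UMIs, both libraries pooled. Most Unc5c UMIs of the cluster thus lay in its remaining cells, which joined neither group. Dcc stood at 248 and 348 CPM and at 243 and 220 CPM, against 293 CPM. Gabra6 stood at 4.398 and 13.038 CPM in this cluster. The part of span, nuclear RNA and this mixture in the levels was not tested.

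**Figure D3:**
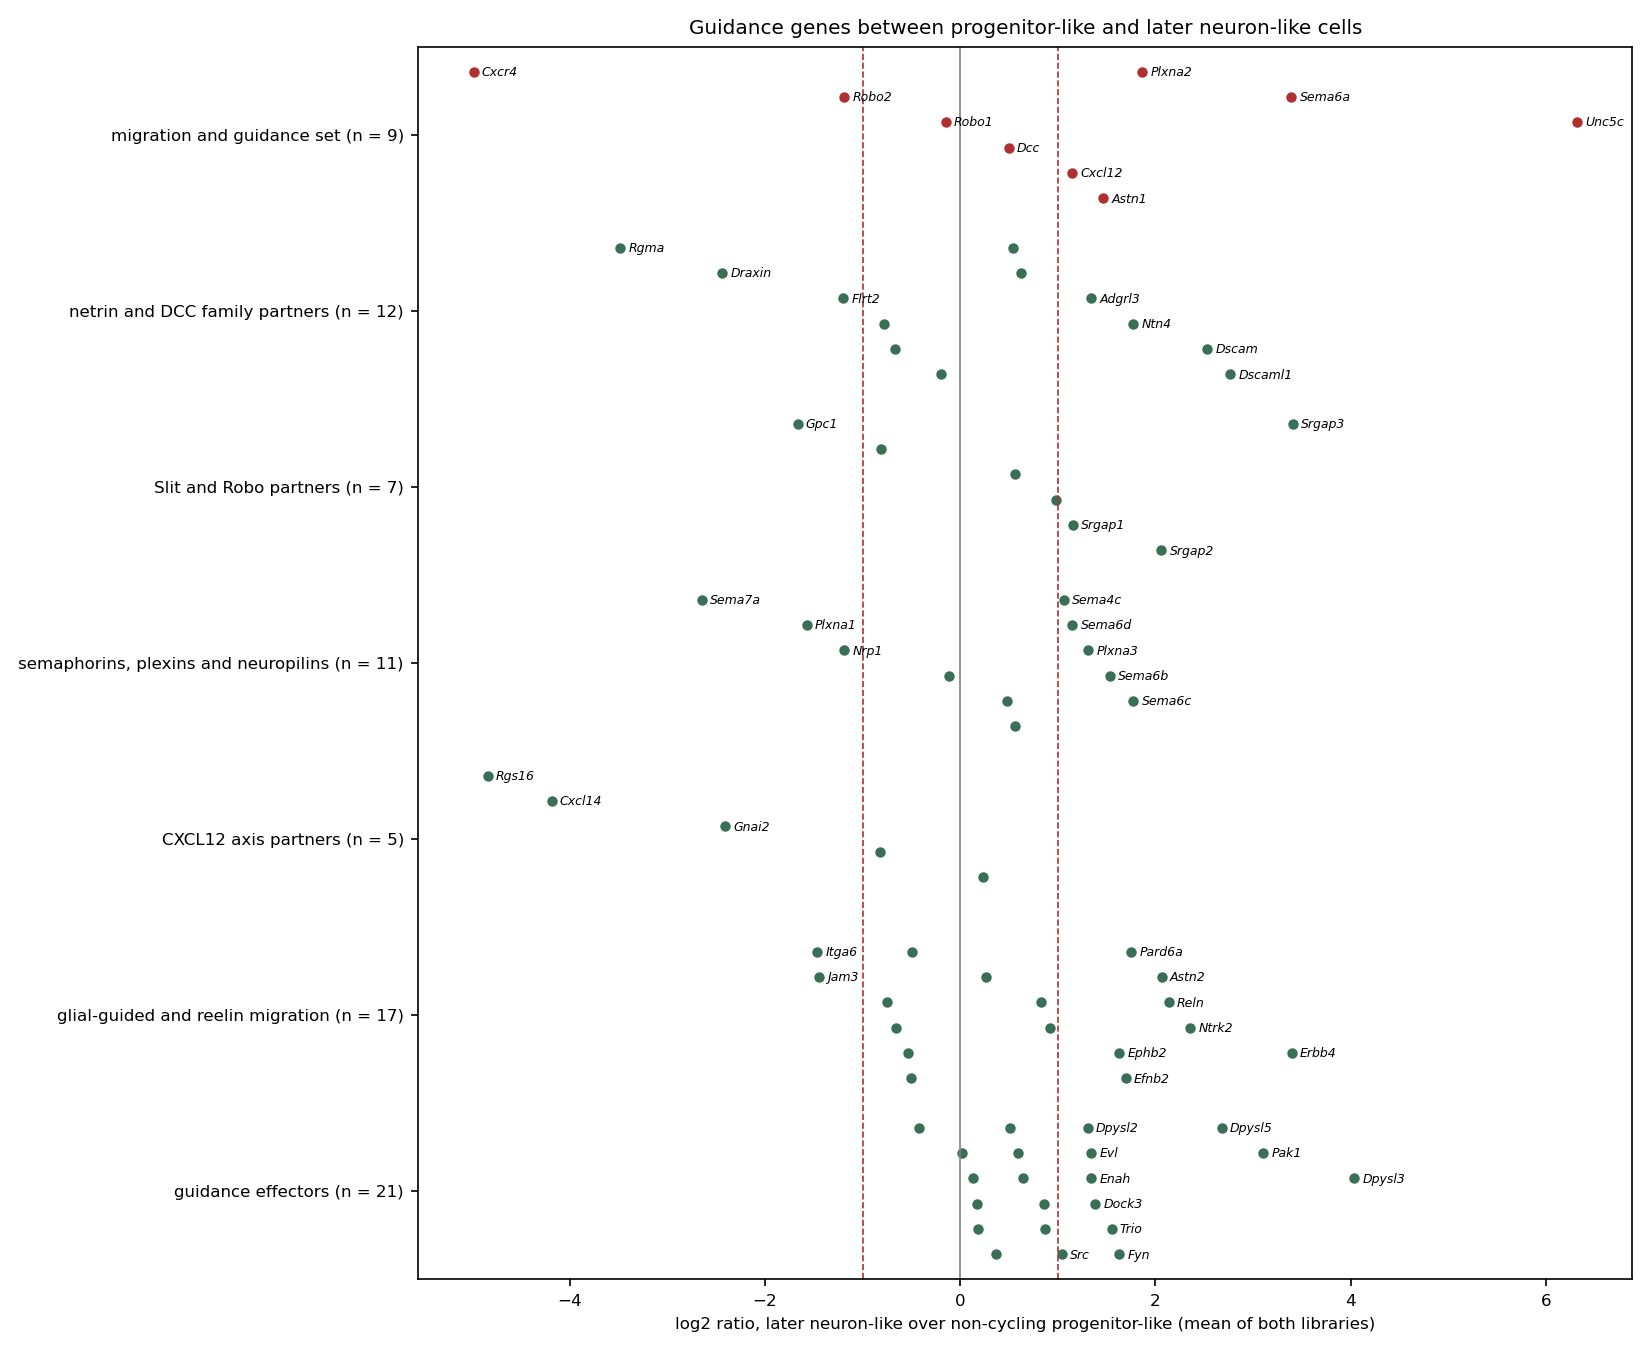
Log2 ratio of later neuron-like over non-cycling progenitor-like cells, averaged over both libraries, for the 9 genes of the set with at least 100 UMIs (red) and for the genes of 6 other guidance lists (green). Each point is a gene, spread vertically for legibility only. Dashed lines mark 2-fold, names are given for the set and for genes whose mean is past 2-fold, and the guidance effectors have no gene beyond the left dashed line.

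By the likeness of log2 level over 20 points (10 tumour-lineage classes in 2 libraries, so classes and libraries are shared and the points are not independent), the genes most like Cxcr4 among 8246 were Whrn, Ppan and Wasf2 (Pearson r 0.98 to 0.97). Those most like Sema6a were Celf2, Celf4 and Tmem2 (0.99), and those most like Unc5c included Adamtsl3 and Zfp521 (0.99). For Astn1 they were Ano8, Mcf2l and Nav1, for Dcc Plekha6, Elovl6 and Akap6, and for Robo2 Sema3e, Greb1l and Kcnh7. For Plxna2 they were Cdk17, Myo10 and Lrrtm3, for Cxcl12 Itm2c, Smarca1 and Rorb, and for Robo1 Slc1a2, Atp7a and Iqce. Among the 10 genes themselves, r was 0.70 between Cxcr4 and Robo2 and -0.72 between Cxcr4 and Sema6a.

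Between the 2 libraries, the levels of most of the 10 genes in tumour-lineage cells were close. None of the 10 passed 1.5-fold in tumour-lineage cells, where 0.904% of 11951 genes did. The log2 ratios of FLASH over standard lay between -0.11 and 0.08 for 8 genes. Sema6a, with 4271 and 4913 UMIs, had 0.01 (-0.05 to 0.07), Robo2 -0.02 (-0.10 to 0.05) and Astn1 0.08 (-0.07 to 0.22). Dcc had -0.09 (-0.15 to -0.03), but 0.01 with at most 5% mitochondrial UMIs and -0.02 without the nuclear RNA-led cluster. Unc5b, with 50 and 53 UMIs, had an interval of -0.69 to 0.48, which a 1.5-fold difference lies inside. The median over all genes was 0.0016.

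Cxcr4 differed most: 41.8 CPM (39.8 to 43.9) in the standard against 32.1 CPM (30.5 to 33.8) in the FLASH tumour-lineage cells, a log2 ratio of -0.38 (-0.48 to -0.28) or 1.30-fold lower. The ratio lay between -0.39 and -0.36 over 11 alternatives. It was at or below this value for 209 of 11951 genes (1.75%). By class it ran from -1.03 to -0.12 with a median of -0.42, and it was below 0 in 9 of 9 classes, as for 214 genes (1.79%). In the intermediate class it was -0.92 (-1.44 to -0.42), on 100 and 50 UMIs, past 1.5-fold as 1 of 6 genes compared there, beside a background of 1.32%. In the other 8 named classes 0 of the 5 to 8 genes with at least 100 UMIs passed 1.5-fold. Below that limit Cxcr4 had -1.03 (-2.20 to -0.01) in early postmitotic-like cells, on 24 and 12 UMIs, and Cxcl12 had -1.88 (-4.52 to -0.12) in G2-like cells, on 11 and 3 UMIs. Unc5b and Unc5c were also past 1.5-fold in single classes there, with intervals that included 0. The share of all genes with at least 100 UMIs past 1.5-fold was 1.33% in S entry-like, 1.21% in histone-rich S-like, 1.43% in G2-like and 1.26% in mitosis-like cells, 1.08% and 0.997% in Hes1-led and Hes1-low progenitor-like cells, and 0.913% and 0.8% in early postmitotic-like and later neuron-like cells. For Cxcr4, the intervals of S entry-like, mitosis-like, Hes1-low progenitor-like and later neuron-like cells included 0. In macrophage-like cells the ratio was -0.22 (-0.61 to 0.17). With 1 library per group, the difference of Cxcr4 between treatments and that between tumours or library preparations cannot be told apart.

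Cxcl12 had a log2 ratio of -0.21 (-0.39 to -0.03) in tumour-lineage cells, with 13 CPM in the standard and 11.3 CPM in the FLASH library. Outside the tumour lineage it was the other way, 40.3 against 68.3 CPM and 0.76 (0.46 to 1.07), past 1.5-fold as 1 of 5 genes compared there, where 3.99% of all genes were. That second ratio rests on few cells. Of the 134 UMIs in the standard library, 84 came from 33 endothelial-like and 47 from 5 fibroblast-like cells, and of the 265 in the FLASH library 151 came from 50 and 90 from 7 such cells.

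**Figure D4:**
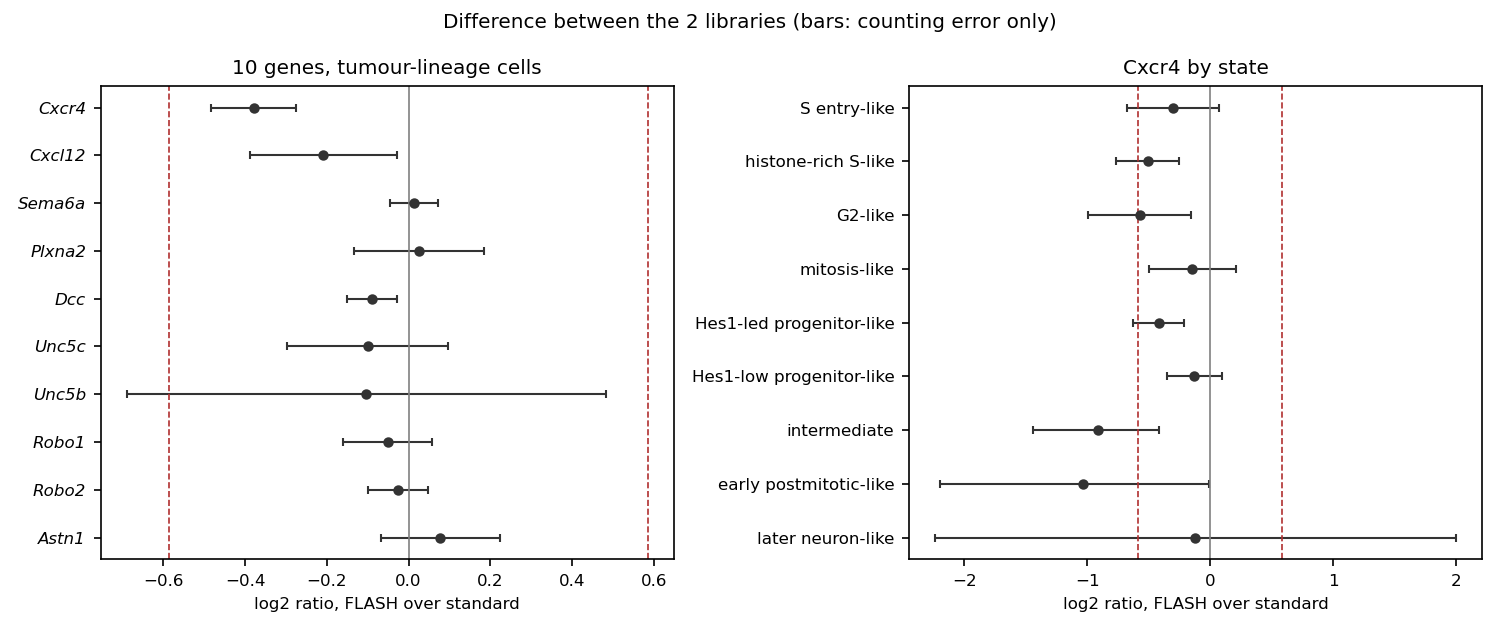
Log2 ratio of FLASH over standard with exact 95% intervals for counting error, for the 10 genes in tumour-lineage cells (left) and for Cxcr4 in each of 9 tumour-lineage classes (right). Dashed lines mark 1.5-fold either way. Cxcr4 is at -0.38 on the left and below 0 in 9 of 9 classes on the right, and the intervals of 7 of the other 9 genes include 0.

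Free RNA from broken cells can put UMIs of tumour genes into other cells. Taking macrophage-like and microglia-like cells together, Dcc stood at 6.81% and 11% of its tumour-lineage level, Sema6a at 4.88% and 8.03%, Robo2 at 8.03% and 10.6%, Robo1 at 7.19% and 4.08% and Astn1 at 10.7% and 6.93%. Plxna2 stood at 40.6% and 30.8% on 13 and 11 UMIs, and Unc5c at 36.7% and 0% on 8 and 0 UMIs. Unc5b and Cxcl12 each gave 0 and 3 UMIs there, and Cxcr4 was higher than in tumour-lineage cells. Values of Dcc, Sema6a, Robo2, Robo1 and Astn1 near such a share of the tumour level in another class are not read as expression here. Whether UMIs of these genes, or of Plxna2 and Unc5c, in macrophage-like and microglia-like cells are free RNA was not tested.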

How the data were processed

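Cells of 2 mouse medulloblastoma libraries were analysed from the raw UMI count matrices deposited by the authors, which the file headers credit to Cell Ranger 6.1.2, with mm10 as build per the submitters' processing notes. Barcodes with at least 500 genes and at most 10% mitochondrial UMIs were kept. Scrublet's automatic cutoff marked 0 of 8461 and 0 of 10366 barcodes and so had not worked. The highest scores were removed instead, 573 (6.77%) and 860 (8.30%). Cells were scaled to 10000 UMIs and clustered without the 10 genes (2000 variable genes, 30 components, 15 neighbours, Leiden resolution 1.0, seed 0) with scanpy 1.11.5, leidenalg 0.10.2, igraph 0.11.9, scipy 1.17.1 and python 3.11.15. Of 23 clusters, 11 were tumour-lineage and 4 shallow. The shallow clusters held 17.6% of kept cells in the standard and 16.3% in the FLASH library and were left out of the classes. The limits for naming clusters were set after the data were seen.

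UMIs were summed per class and library and given per 1000000 UMIs of the class (CPM). Log2 ratios added 0.5 counts. Ratios have exact conditional binomial, levels exact Poisson and shares exact Clopper-Pearson 95% intervals, which cover counting error only. A gene was called between libraries past 1.5-fold with at least 100 UMIs, and between classes past 1.5-fold (2-fold against progenitor-like cells for neuron-like classes) in the same direction in both libraries. On simulated counts for FLASH over standard in tumour-lineage cells (11951 genes), 97.5% of 200 genes changed 2-fold were recovered, with 0.0936% false calls. Recovery is given for 2-fold only, whereas the limit of the call is 1.5-fold. With 1 library per group, these shares do not cover spread between tumours or library preparations. The share of false calls for a difference between treatments was not tested. Gene coordinates are from GENCODE M21.

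The 10 genes and the 6 lists were chosen with earlier results of these data known. Only the 10 genes were left out of the clustering. Genes of the 6 lists could therefore help form the classes across which they are compared. The list genes given by level are those among the 3 highest of their list in a tumour-lineage or stromal class, beside those past the limits and the ligands Ntn1 and Slit1 to Slit3. For each of the 10 genes with enough UMIs, the 3 genes most like it in log2(CPM + 5) are named, except 1 that is not reported here.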

Additional observations from a re-analysis of the deposited data

How the results depend on the processing

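No paired analysis was possible because each group has 1 library. Filters on genes and mitochondrial share, doublets, clustering, scaling and the UMI minimum were varied. The alternatives without the nuclear RNA-led cluster, without the Meis2-led cluster and with the shallow clusters counted as tumour-lineage were chosen after seeing the data. The count of genes past 2-fold between later neuron-like and progenitor-like cells was 7, and 4 with classes from per-cell marker UMIs. The count past 1.5-fold between cycling and non-cycling progenitor-like cells was 3, but 2 with at most 5% mitochondrial UMIs (without Cxcr4), 4 at Leiden resolution 2.0 (Sema6a higher in addition), 5 with doublets kept (Plxna2 and Unc5c higher in addition) and 6 with classes from per-cell marker UMIs (Plxna2 higher, Cxcl12, Sema6a, Unc5c, Dcc and Astn1 lower, and neither Cxcr4 nor Robo2). The cause was not tested. Of the 110 library ratios of the 10 genes under alternatives, 103 kept their sign, and of the 108 later neuron-like ratios 105 did, but 37 of the 108 moved beyond the counting interval of the main value. Dcc was at -0.12 and -0.05 with classes from per-cell marker UMIs, against 0.41 and 0.59. At resolution 2.0 a cluster of 464 and 606 cells, 91.8% and 92.1% of them Hes1-low progenitor-like, and a cluster of 341 and 431 cells, mostly mitosis-like, kept no name and were left out of the classes compared. The first took 426 of the 968 and 558 of the 1311 Hes1-low progenitor-like cells and had Cxcr4 at 35.6 and 33.3 CPM. A cluster of 386 and 571 cells that kept the Hes1-low name had Cxcr4 at 68.6 and 54.6 CPM. Another cluster of 179 and 194 cells, mostly Hes1-led in the main clustering, also took that name and had Cxcr4 at 98.6 and 76.5 CPM. Depth limits Unc5b in particular, and the 5 and 7 fibroblast-like cells limit any statement on Cxcl12 there.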

Other observations

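At a finer clustering (resolution 2.0), a group of 179 cells in the standard and 194 in the FLASH library held both the chemokine and its receptor at high levels. Of these cells, 59.2% and 59.8% belonged to the Hes1-led and 38.0% and 37.6% to the Hes1-low progenitor-like class. At the finer resolution the whole group took the Hes1-low name, so its Hes1-led cells changed class. The group was led by Cre, Kcnh7 and Gfap, and it was chosen after its values were seen. Cxcl12 stood there at 73.9 and 70.9 CPM (81 and 76 UMIs), Cxcr4 at 98.6 and 76.5 CPM and Robo2 at 186 and 169 CPM. Cxcl12 is among the genes that led this group, so its level there is a description of the group.

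Dcc was also high in 2 other groups at that resolution. In a group of 312 and 334 cells led by Hrk and Chrna3 it stood at 262 and 256 CPM. Early postmitotic-like cells made up 79.5% and 79.0% of that group and intermediate cells 18.9% and 19.8%. In a group of 162 and 122 cells led by Mki67 and Knl1 it stood at 243 and 220 CPM, beside Plxna2 at 54.3 and 63.9 CPM and Robo2 at 161 and 212 CPM. Of that group, 90.7% and 88.5% came from the nuclear RNA-led cluster, so it is not a group of the mitosis-like class. Both groups were chosen after their values were seen.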
